A study of Arabidopsis thaliana with 4 samples.

Results

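The first and the second library made with the ODD probes against the APOLO RNA, called ODD 1 and ODD 2 here, were compared peak by peak. Every peak that the authors called on the 5 nuclear chromosomes entered, 16126 in ODD 1 and 58146 in ODD 2, which is 74272 of the 107288 nuclear peaks of the series. A peak counted as found when it overlapped a peak of the other list by at least 1 bp. This gave 15291 ODD 1 peaks found in ODD 2 and 835 not found, and 14370 ODD 2 peaks found in ODD 1 and 43776 not found.

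APOLO is a long noncoding RNA of Arabidopsis thaliana that is induced by auxin and is transcribed next to PINOID (PID), whose kinase product phosphorylates PIN auxin carriers. It is known to form RNA-DNA hybrids at distant genes and to change chromatin looping there. In chromatin isolation by RNA purification (ChIRP), biotinylated oligonucleotides complementary to an RNA pull that RNA out of crosslinked chromatin, and the DNA that comes with it is sequenced. The oligonucleotides are split into an ODD and an EVEN set, so that DNA recovered by only one set can be told from DNA recovered through the RNA, and oligonucleotides against the bacterial LACZ gene serve as the control.

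All 4 libraries came from Col-0 plants that carried the full-length APOLO region driven by the 35S promoter in the vector pB7WG2, grown in long days on solid medium, so ODD 1, ODD 2 and the EVEN and LACZ libraries share the overexpression. The sources used here do not give the age, the tissue or the number of plants behind each library, nor whether ODD 1 and ODD 2 came from separate plants. The submitters' design text speaks of 3 independent libraries for the ODD, EVEN and LACZ probes, whereas 4 were listed, ODD 1, ODD 2, EVEN 1 and LACZ 1. With 1 list on each side of the comparison no test across replicates exists. Shares carry an exact (Clopper-Pearson) 95% binomial interval and medians a 95% order-statistic interval, and both cover counting error only. The transgene carries the APOLO region too, so DNA of the native locus and of the transgene cannot be told apart in these lists.

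The lists differed in estimated depth. The lowest local background that the peak caller used, divided by the shortest peak, was taken as the relative number of fragments. This holds only if the shortest peak equals the fragment length set in peak calling, which the sources used here do not give. By this estimate ODD 2 held 2.94 times the fragments of ODD 1. EVEN 1 held 2.19 times and LACZ 1 held 1.31 times those of ODD 1. Peaks covered 2.01 Mb in ODD 1 and 13.0 Mb in ODD 2, and the shortest peak was 47 bp in ODD 1 and 94 bp in ODD 2. It was 54 bp in EVEN 1 and 200 bp in LACZ 1, so overlap shares with EVEN 1 and with LACZ 1 are not on a like scale. A peak that was not found was not called in the other list, which does not show that the DNA was absent there. How far depth by itself set the found shares was not tested.

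Nearly all peaks of the shorter list lay in the longer one. Of the ODD 1 peaks, 94.8% (94.5 to 95.2) were found in ODD 2, against 24.7% (24.4 to 25.1) of the ODD 2 peaks in ODD 1. These shares were close on all chromosomes, between 94.4% and 95.1% for ODD 1 and between 24.1% and 25.5% for ODD 2. When the ODD 2 list was cut to the length of the ODD 1 list by pileup, 72.7% of the ODD 1 peaks and 67.4% of the remaining ODD 2 peaks were found. The 15291 ODD 1 peaks fell on 14370 ODD 2 peaks, because 841 ODD 2 peaks held 2 or more ODD 1 peaks each. These merged ODD 2 peaks had a median width of 525 bp, against 266 bp for ODD 2 peaks that held 1 ODD 1 peak.

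The pileup, the number of fragments stacked at the summit, separated found peaks from the others. It was ranked within each list, as percent of the list with 0 for the highest, since raw pileups were made within 1 library and not scaled between libraries. The median rank was 48.4% for ODD 1 peaks that were found and 84.3% (71.4 to 84.3) for those that were not. In ODD 2 it was 14.4% (14.4 to 14.8) for found peaks and 62.9% for the rest. The medians of the pileup itself were 11 and 8 fragments for found and not found ODD 1 peaks, and 67 and 26 fragments for found and not found ODD 2 peaks. The fold enrichment, the authors' ratio of pileup to local background, had medians of 5.03 and 3.91 for found and not found ODD 1 peaks, and of 6.81 and 3.05 for found and not found ODD 2 peaks.

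Cut into deciles by pileup, ODD 1 gave a found share of 99.3% in its highest decile and of 84.4% (82.5 to 86.1) in its lowest. The decline in ODD 2 was far steeper. The found share was 92.0% (91.3 to 92.7) in its highest decile, 63.3% in the second, 38.2% in the third and 23.0% in the fourth, and it continued down to 1.46% (1.17 to 1.80) in the lowest. All deciles of ODD 1 were therefore well represented in ODD 2, and the ODD 1 list drew mostly on the upper part of ODD 2.

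**Figure D1:**
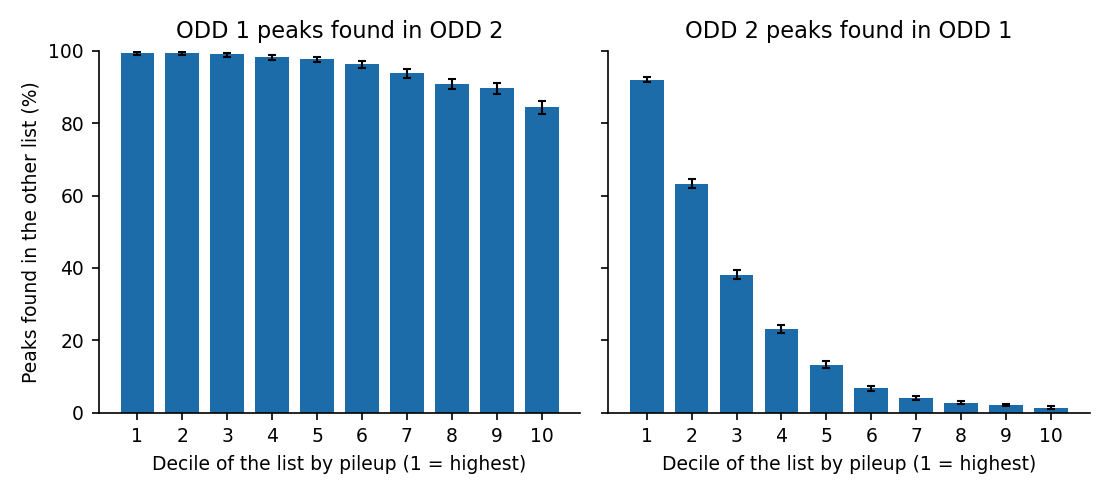
Share of peaks found in the other list (vertical axis, %) for each decile of a list by pileup, with ODD 1 at the left and ODD 2 at the right. Bars are shares and lines are exact 95% binomial intervals; ODD 1 stays between 84.4% and 99.4%, and ODD 2 runs between 92.0% and 1.46%.

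Within the 15291 pairs, each made of an ODD 1 peak and the ODD 2 peak it overlapped most, the order of the peaks was partly kept. Spearman's rho between the 2 lists was 0.639 for pileup, 0.556 for fold enrichment and 0.397 for width, over 15291 pairs that share some ODD 2 peaks, given as a description. Of the 1601 pairs in the highest decile of ODD 1, 1437 (89.8%, 88.2 to 91.2) had their partner in the highest decile of ODD 2, and no partner ranked below the fifth decile. At the other end, 125 of 1360 found peaks of the lowest ODD 1 decile (9.19%) had a partner in the highest decile of ODD 2. The median ODD 2 rank of the partners was 1.81% for the highest ODD 1 decile and 30.5% for the lowest.

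**Figure D2:**
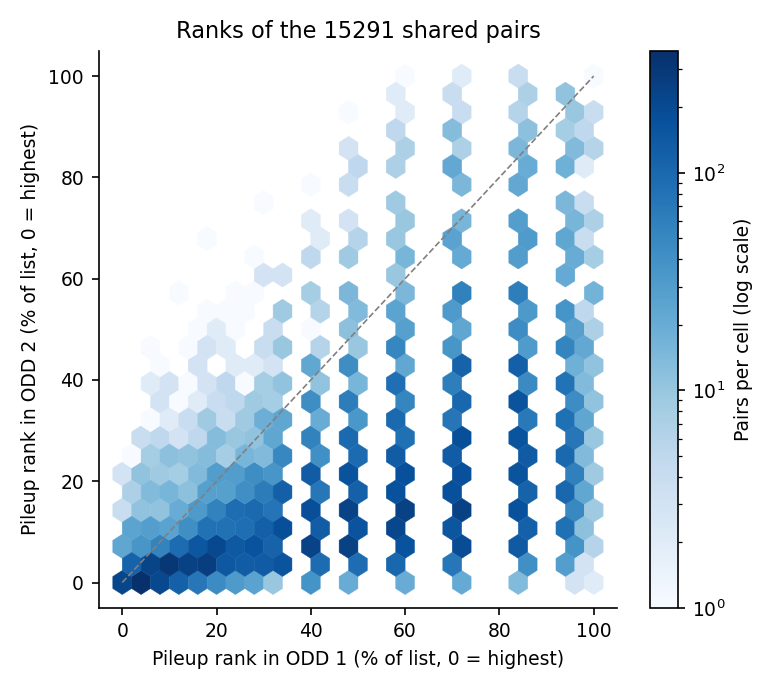
Pileup rank of each shared pair in ODD 1 (horizontal axis, % of list) and ODD 2 (vertical axis, % of list), with 0 the highest; cell colour is the number of pairs on a log scale and the dashed line marks equal ranks. Most pairs (93.2%) lie below the line, that is, higher up in the ODD 2 list than in the ODD 1 list, which is 3.61 times shorter; the columns at the right are tied ODD 1 pileups.

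The 10 pairs with the highest combined rank lay in RNA genes, in a few genes annotated as protein-coding, beside a pseudogene and in pericentromeric DNA far from genes. The gene annotation used here classes the APOLO locus, AT2G34655, as protein-coding. The highest pileup of both lists lay in AT2G00340, annotated as miscellaneous RNA, near the end of chromosome 2. Its ODD 1 peak ran from 9688 to 10234 with a pileup of 94, and its ODD 2 peak from 9649 to 10268 with a pileup of 187. EVEN 1 and LACZ 1 also had a peak there, with folds of 15.7 and 15.0. AT5G10340, a protein-coding gene, had the highest fold of the ODD 1 list, 34.9 at 3253120 to 3253246 of chromosome 5, against 15.4 in ODD 2, with summits 1 bp apart. This position too had peaks in EVEN 1 (fold 21.2) and LACZ 1 (fold 15.2).

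APOLO itself (AT2G34655) and a position within 1 kb of the pseudogene AT5G49465 were the only members of those 10 with no LACZ 1 peak. At APOLO the ODD 1 peak covered 14596650 to 14597580 of chromosome 2 and stood at place 13 of its list by pileup, with a pileup of 82. The ODD 2 peak covered 14596617 to 14597674 and stood at place 4, with a pileup of 166. The ODD 1 summit lay 80 bp below the ODD 2 summit. Beside AT5G49465 the pileups were 78 in ODD 1 and 161 in ODD 2, with summits 8 bp apart. The other 6 pairs all lay in pericentromeres, among them peaks in AT1G40104 and in the lncRNA gene AT3G06355, and had folds between 7.79 and 8.68 in ODD 1 and between 4.19 and 6.46 in ODD 2. Each of these 6 overlapped an EVEN 1 and a LACZ 1 peak, and a pair of them shared 1 ODD 2 peak on chromosome 3.

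Found peaks were wider. An overlap of at least 1 bp is easier for a wide peak, so the rule itself favours wider found peaks. How far it set the differences in width was not tested. The median width was 108 bp (107 to 110) for ODD 1 peaks that were found and 53 bp (52 to 55) for those that were not. In ODD 2 it was 274 bp (272 to 277) for found peaks and 159 bp (159 to 160) for the rest. The shortest width, 47 bp, was held by 8.08% of the found ODD 1 peaks and by 35.3% of those not found. The gap in width stayed within like rank. In the highest decile of ODD 2 the median was 343 bp for found and 257 bp for not found peaks, and in the fifth decile 189 and 167 bp. In the lowest decile the 2 medians were both 129 bp. In ODD 1 the not found peaks had medians between 49 and 64 bp in every decile, whereas the found ones had 229 bp in the highest decile and 71 bp in the lowest.

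**Figure D3:**
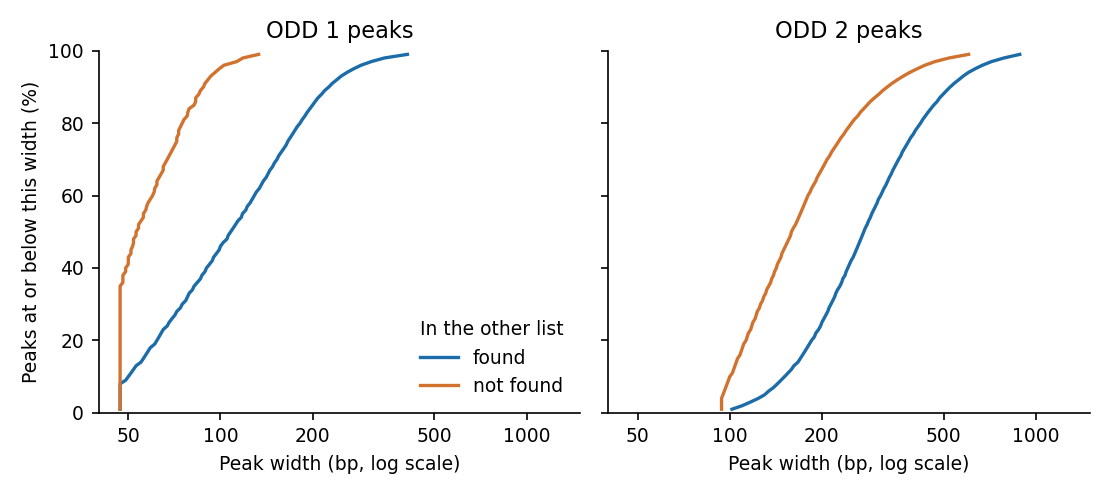
Cumulative share of peaks (vertical axis, %) by peak width (horizontal axis, bp, log scale) for ODD 1 at the left and ODD 2 at the right, found peaks in blue and not found peaks in orange, at percentiles 1 to 99. Not found peaks lie to the left of found ones in both lists, with medians of 108 and 53 bp for found and not found ODD 1 peaks and of 274 and 159 bp for found and not found ODD 2 peaks.

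An ODD 1 peak usually sat inside a broader ODD 2 peak. In 86.6% of pairs the whole ODD 1 peak lay within its partner, whereas the reverse held in 28 pairs. The median ratio of widths, ODD 1 over ODD 2, was 0.409 (0.404 to 0.415), and ODD 2 reached a median of 67 bp past ODD 1 on the lower side and 68 bp on the upper side. The ratio was 0.580 in the highest ODD 1 decile and 0.299 in the lowest. The shortest peak was 47 bp in ODD 1 and 94 bp in ODD 2, and the part of these floors in the ratio was not tested.

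Near the overlap threshold few peaks decided the result. Best overlaps of 1 to 10 bp accounted for 35 ODD 1 peaks, and 39 ODD 1 peaks that were not found lay under 10 bp away from an ODD 2 peak. Both groups had a median width of 47 bp and a median rank of 84.3%. Of all 835 ODD 1 peaks not found, 59.8% (56.3 to 63.1) lay under 500 bp from an ODD 2 peak, with a median gap of 365 bp (320 to 405). The ODD 2 list is dense, and the share of other genome positions that lie as near to it was not computed. These gaps are therefore not read as near misses. ODD 2 peaks that were not found lay farther from the sparser ODD 1 list, with a median gap of 2870 bp (2833 to 2906) and 10.6% under 500 bp.

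The summits of shared pairs lay near each other, with no net direction. Pairs were made by overlap, with median widths of 108 bp in ODD 1 and 283 bp in ODD 2. Overlap by itself limits the shift, and its part in the values below was not tested. The ODD 1 summit minus the ODD 2 summit had a median of -1 bp (-1 to 0). It was negative in 7654 pairs, positive in 7467 and 0 in 170. The median absolute shift was 37 bp (36 to 37). In 65.5% of pairs the summits lay within 50 bp of each other, in 88.6% within 100 bp and in 99.4% within 500 bp. Pairs from the highest ODD 1 decile had a median absolute shift of 33 bp (31 to 35) and those from the lowest 41 bp (38 to 44). Where 1 ODD 2 peak held several ODD 1 peaks the median was 111.5 bp, against 34 bp for the other pairs.

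**Figure D4:**
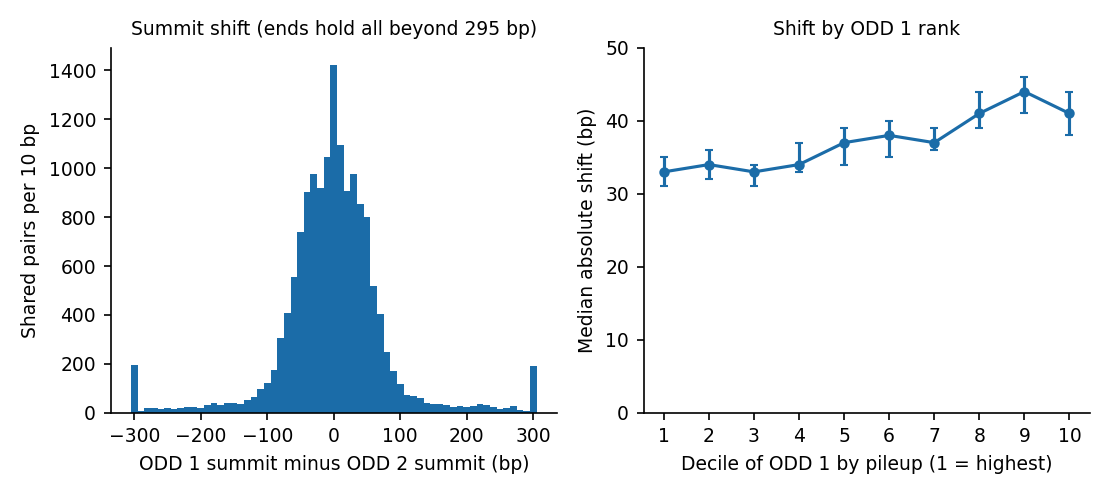
Left, shared pairs per 10 bp of summit shift (ODD 1 summit minus ODD 2 summit, bp), with all shifts beyond the range in the end bars. Right, median absolute shift (bp) with its 95% interval by decile of ODD 1; the medians run between 33 and 44 bp.

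The largest shifts came from very wide ODD 2 peaks over coding genes. At EXT10, which encodes an extensin of the cell wall, a 64 bp ODD 1 peak lay 1786 bp below the summit of a 2001 bp ODD 2 peak. At AT1G23720, ODD 1 peaks of 294 and 115 bp lay 1524 and 1302 bp above the summit of the widest ODD 2 peak of all, 2189 bp. AT3G19020 and AT5G28463 had shifts of -1223 and -985 bp inside ODD 2 peaks of 1769 and 1565 bp.

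A few pairs had very unequal ranks. The 5 with the greatest excess in ODD 2 all had the smallest ODD 1 pileup, 6, and lay in or beside AT2G46520, AT4G08078, AT4G05485, AT1G67180 and AT2G34110. AT2G46520 had a pileup of 6 in ODD 1 (rank 99.1%) and of 120 in ODD 2 (rank 0.610%), and its ODD 1 peak of 57 bp lay 226 bp from the ODD 2 summit. AT4G05485, a lncRNA gene within 1 kb of its peak, had pileups of 6 in ODD 1 and 107 in ODD 2 with summits 25 bp apart. The median pair ranked 26.6 points lower in the shorter ODD 1 list, so the 2 directions are not compared in size. In the opposite direction, AT2G07721, in the mitochondrial copy of chromosome 2, had a pileup of 21 in ODD 1 (rank 11.4%) and of 28 in ODD 2 (rank 55.6%). AT5G47540 had pileups of 11 in ODD 1 (rank 48.4%) and 19 in ODD 2 (rank 94.0%). Of the 5 pairs in that direction, 4 lay in pericentromeres and AT5G47540 on an arm. Pericentromeres held 23.2% of all found ODD 1 peaks. Of the 5 pairs with the excess in ODD 2, those at AT4G08078 and AT4G05485 were pericentromeric too.

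Of the ODD 2 peaks without an ODD 1 counterpart, the highest was in AT5G16990, at 5583407 to 5583763 of chromosome 5, with a pileup of 111, which was only place 837 of ODD 2. AT3G03550 followed with a pileup of 107 and a fold of 11.9 over a 951 bp peak at 850580 to 851530 of chromosome 3. Others were beside MBD1, a methyl-CpG-binding domain protein gene (pileup 105, fold 6.22), and in CRLK2, a gene of a calcium/calmodulin-regulated receptor-like kinase (pileup 103, fold 9.06), and CWLP, which encodes a linker protein of cell wall and plasma membrane (pileup 101, fold 5.68). Of the 10 highest, 1 lay in a pericentromere, near the 14.4% of all not found peaks in the highest ODD 2 decile. None of the 10 overlapped an EVEN 1 peak and 1, in the pseudogene AT4G05526, overlapped a LACZ 1 peak. Over all not found peaks in the highest ODD 2 decile these shares were 12.5% for EVEN 1 and 7.74% for LACZ 1. With 10 peaks the counts are not set apart from those shares.

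PIN7, the gene of an auxin efflux carrier, showed both outcomes. Its ODD 2 peak at 8181709 to 8182343 of chromosome 1 reached a pileup of 101 (rank 3.60%) without any ODD 1 counterpart. Another ODD 2 peak at 8180286 to 8180517 had a lower pileup of 95 (rank 5.19%) but a higher fold, 9.92 against 9.30. That ODD 2 peak was paired with an ODD 1 peak at 8180373 to 8180519 that had a pileup of 24 (rank 8.34%).

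The strongest ODD 1 peaks without an ODD 2 counterpart were of another kind. In the highest ODD 1 decile 12 peaks were not found, and 12 of 12 lay in pericentromeres, defined as the 3 Mb to each side of the point with fewest coding genes on a chromosome, against 620 of the 1601 found (38.7%). Their median width was 53 bp against 229 bp for the found peaks, and their median local background 7.08 fragments against 1.80. Of the 12, 9 overlapped an EVEN 1 peak (interval 42.8% to 94.5%) and 4 a LACZ 1 peak (9.92% to 65.1%). Among the found peaks of this decile the shares were 52.4% for EVEN 1 and 30.5% for LACZ 1. Both lie within those intervals, so with 12 peaks the counts are not set apart from these shares. The 2 highest lay at 11730427 to 11730490 and 11735968 to 11736030 of chromosome 5, with pileups of 81 and 71 and folds of 5.19 and 7.26. The 10 highest came from a few short stretches. These were 11706564 to 11736030 of chromosome 5, 3952521 to 3979457 of chromosome 4, 3614933 to 3623340 of chromosome 2 and 15084078 to 15084130 of chromosome 1. The counts and intervals above treat neighbouring peaks as separate, so they do not stand for 12 independent sites. Over the 3 highest deciles 38 ODD 1 peaks were not found, 32 of them pericentromeric (84.2%), against 29.3% of the found ones.

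Over the whole of ODD 1 the position of the summits moved with being found. Pericentromeres held 23.2% of the found and 30.1% (27.0 to 33.3) of the not found ODD 1 summits. Weighted to the pileup deciles of the found peaks, the share of not found peaks was 47.9%. That value leans on few peaks, since the 3 highest deciles held only 12, 10 and 16 not found ODD 1 peaks. At like pileup decile and width quintile, which covered 66.8% of the found peaks, the shares were 23.1% of found and 28.9% of not found peaks, and the found share was the higher one in 15 of 34 strata. In ODD 2 the shares were 22.6% of found and 22.1% of not found summits, within counting error of each other. At like pileup decile, however, pericentromeres held 22.6% of found and 17.7% of not found ODD 2 peaks, with the found share higher in 10 of 10 deciles, and at like decile and width quintile 22.6% and 17.2%.

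Most summits of all sets lay in protein-coding genes. The share was 72.3% (71.5 to 73.0) of found and 64.6% (61.2 to 67.8) of not found ODD 1 peaks. On chromosome arms alone that difference was 0.46 percentage points, with an interval that spans 0. In ODD 2 the shares were 72.1% of found and 73.9% of not found peaks, and the order turned round, to 2.42 points higher in found peaks, when ODD 2 was cut to the length of ODD 1. Pseudogenes held 7.23% of found and 14.5% (12.2 to 17.1) of not found ODD 1 summits, and 6.96% of found and 10.3% of not found ODD 2 summits. Summits outside genes but within 1 kb of one made up 13.7% of found and 10.3% of not found ODD 2 peaks, an order that also turned round in the list of equal length, with a difference of -2.53 points.

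The copy of mitochondrial DNA near the centromere of chromosome 2 had a found share of ODD 2 peaks far above that of the nuclear genome. Between the loci AT2G07742 and AT2G07670 ODD 1 had 170 peaks and ODD 2 had 154, whereas outside it ODD 1 had 15956 and ODD 2 had 57992. There 93.5% (88.4 to 96.8) of the ODD 2 peaks were found in ODD 1, against 24.5% (24.2 to 24.9) elsewhere. The ODD 1 share was 94.1% (89.4 to 97.1) there and 94.8% elsewhere. The peaks were narrow, with a median of 66 bp in ODD 1 and 137.5 bp in ODD 2, and their median rank was 14.2% in ODD 1 and 23.3% in ODD 2. Almost all of them coincided with EVEN 1, 98.8% of those in ODD 1 and 98.7% of those in ODD 2, and LACZ 1 coincided with 63.5% of those in ODD 1 and 60.4% of those in ODD 2. Reads of this copy and of the mitochondrial genome itself cannot be told apart in these lists.

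Peaks of the other probes were a readout that the overlap of the ODD lists did not use. Among ODD 2 peaks, 29.8% of those found in ODD 1 overlapped an EVEN 1 peak, against 15.6% of those not found. The LACZ 1 shares were 15.9% of found and 12.0% of not found ODD 2 peaks. Since found peaks were higher and wider, the shares were also compared at like pileup decile and width quintile, which gave 29.8% and 16.6% for EVEN 1 and 15.9% and 10.5% for LACZ 1, found peaks first. The EVEN 1 share was higher in found peaks in 10 of 10 pileup deciles and the LACZ 1 share in 7 of 10. In the highest ODD 2 decile EVEN 1 overlapped 33.8% (32.5 to 35.0) of found and 12.5% (9.61 to 15.8) of not found peaks, and LACZ 1 overlapped 17.4% of found and 7.74% of not found peaks. Found ODD 2 peaks thus overlapped peaks of the APOLO probes and of the control probes more often.

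**Figure D5:**
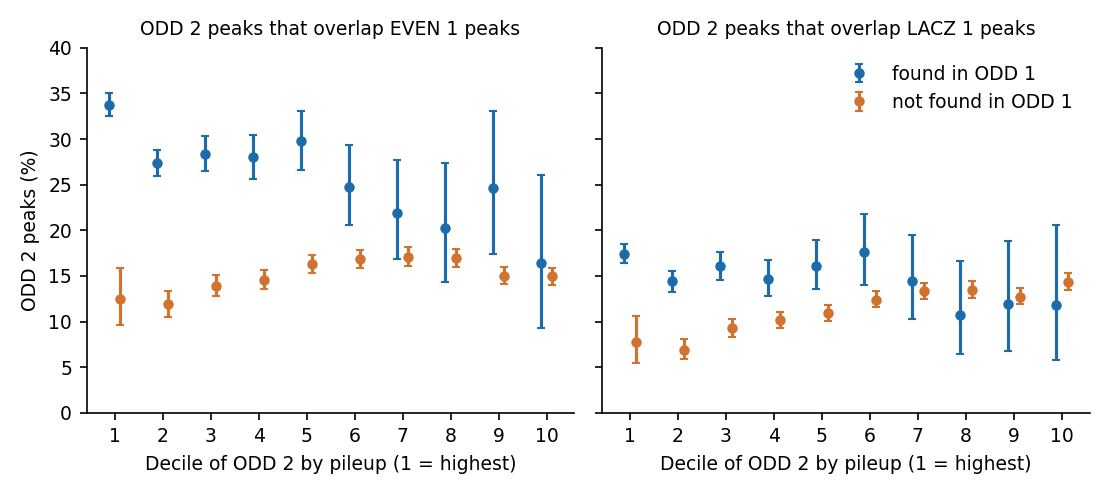
Share of ODD 2 peaks (vertical axis, %) that overlap an EVEN 1 peak (left) or a LACZ 1 peak (right), by decile of ODD 2 pileup, for peaks found in ODD 1 (blue) and not found (orange), with exact 95% binomial intervals. In the highest decile the EVEN 1 shares are 33.8% for found and 12.5% for not found peaks, and the LACZ 1 shares 17.4% and 7.74%.

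In ODD 1 the order changed with the way peaks were compared. As deposited, EVEN 1 overlapped 24.7% of found and 11.9% (9.74 to 14.2) of not found ODD 1 peaks, and LACZ 1 overlapped 13.6% of found and 10.1% of not found peaks. With 200 bp windows on the summits of both ODD lists, the found share was lower than the not found share, with differences of -0.53 points (-3.58 to 2.44) for EVEN 1 and -4.15 points (-6.79 to -1.62) for LACZ 1. At like pileup decile without windows, EVEN 1 overlapped 24.7% of found and 27.5% of not found ODD 1 peaks, with the found share higher in 6 of 10 deciles, and LACZ 1 overlapped 13.6% of found and 11.9% of not found peaks, with the found share higher in 7 of 10. These weighted not found shares lean on few peaks, with only 12, 10 and 16 in the 3 highest deciles. With −log10 q of at least 5 the EVEN 1 difference was -0.600 points (-10.1 to 8.13).

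Counted by gene, 47.5% of the 27444 nuclear protein-coding genes had a shared peak in the gene or within 1 kb, 44.0% had an ODD 2 peak and no ODD 1 peak, and 0.160% (44 genes) had an ODD 1 peak and no ODD 2 peak. A further 359 genes had peaks of both lists that did not overlap and 1930 had none. Longer genes had a shared peak more often, 32.0% in the quintile of shortest genes and 61.2% in that of the longest, and the shares with an ODD 2 peak alone were 48.6% and 35.7%. Some peaks that were not found sat in genes with a found one. Of the 32352 ODD 2 peaks that were not found and had their summit in a coding gene, 9910 (30.6%) lay in a gene body that also held the summit of a found peak. For ODD 1 this was 201 of 539 (37.3%, 33.2 to 41.5). By the gene body alone, 33.2% of all coding genes had a shared peak, counted by overlap rather than by summit. Both shares lie near it, so no more is read from them.

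The reported APOLO targets PID, WAG2 and AZG2 differed in ODD 1. AZG2, the gene of a purine and cytokinin transporter, had an ODD 1 peak at place 2424 (pileup 18) over which lay an ODD 2 peak of pileup 100, with summits 28 bp apart. WAG2, the gene of a kinase related to PINOID, had an ODD 1 peak in the lower part of the list (pileup 9, rank 71.4%) under an ODD 2 peak of pileup 77 (rank 10.6%), with summits 27 bp apart. PID had 5 ODD 2 peaks, of which the highest had a pileup of 43 (rank 29.5%), and no ODD 1 peak. EVEN 1 had 4 peaks at AZG2, 3 at WAG2 and 3 at PID. LACZ 1 had 1 peak at AZG2 and none at WAG2 or PID.

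In auxin transport, 12 of 23 genes (52.2%) had a shared peak and 9 (39.1%) an ODD 2 peak alone, near the 47.5% and 44.0% of all coding genes. ABCB4, which encodes an auxin transporter of the ABC family, had an ODD 1 peak of pileup 30 and an ODD 2 peak of pileup 121. LAX2, an auxin influx carrier gene, had 4 ODD 1 and 5 ODD 2 peaks, with pileups of 21 in ODD 1 and 103 in ODD 2 at the strongest pair. In auxin synthesis 5 of 14 genes (35.7%) had a shared peak and 9 an ODD 2 peak alone, a count too small to set apart from the 47.5% of all coding genes. TAA1, which encodes the aminotransferase of the first step, had pileups of 11 in ODD 1 and 59 in ODD 2, and the flavin monooxygenase genes YUC2 and YUC7 had 15 and 12 in ODD 1 against 79 and 39 in ODD 2.

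Auxin signalling had the highest share with a shared peak among the lists of more than 4 genes, 36 of 57 (63.2%) against 47.5% of all coding genes. The median gene length was 2737 bp for the list and 2078 bp for all coding genes. In the length quintile of 2403 to 3310 bp, which holds the median of the list, 53.7% of coding genes had a shared peak. As the highest of several lists chosen with earlier results known, its share is not read as an excess. All 6 receptor genes of the TIR1 and AFB family had a shared peak, as did 12 of 22 ARF genes, which encode the auxin response factors, and 18 of 29 IAA genes, which encode their repressors. ARF19 had 3 ODD 1 peaks and 1 ODD 2 peak. Its strongest ODD 1 peak, with a pileup of 33, lay in that ODD 2 peak of 934 bp and a pileup of 131, with summits 8 bp apart. ARF4 had pileups of 28 in ODD 1 and 95 in ODD 2, and IAA18 had 25 in ODD 1 and 105 in ODD 2. ARF20 was the only member with an ODD 1 peak and no ODD 2 peak, a 53 bp peak of pileup 8.

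Polycomb genes, whose products set and read repressive histone marks, had the lowest share. Only EMF2 of 11 genes (9.09%, against 47.5% of all coding genes) had a shared peak, with pileups of 10 in ODD 1 and 95 in ODD 2. CLF, SWN, MEA, FIE, FIS2, MSI1, LHP1, RING1A and RING1B had ODD 2 peaks alone (81.8%, against 44.0% of all coding genes), and VRN2 had none. The median gene length of the list was 3810 bp. The best ODD 2 rank of those 9 genes had a median of 41.1% and ran between 11.3% at RING1A and 55.6% at LHP1. Over all coding genes with ODD 2 peaks alone that median was 44.8%, and over all coding genes with an ODD 2 peak 23.6%. With 11 genes no more is read from the count.

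The remaining lists are given beside the same 47.5% of all coding genes. Genes of DNA methylation had a shared peak in 9 of 16 cases (56.2%) and cytokinin genes in 12 of 25 (48.0%). Root hair and lateral root regulators had one in 8 of 18 (44.4%), and light-harvesting genes of photosynthesis in 11 of 20 (55.0%). The median gene lengths of these lists were 6209, 2441, 1902 and 1455 bp, in that order. In the length quintiles that hold these medians, 61.2%, 53.7%, 47.6% and 42.6% of coding genes had a shared peak. With lists of this size no more is read from the counts. Among the members of these lists, RDR2, an RNA-dependent RNA polymerase gene of RNA-directed DNA methylation, had an ODD 1 pileup of 33 and an ODD 2 partner of 109. The cytokinin receptor gene AHK3 had pileups of 22 in ODD 1 and 106 in ODD 2. SHR, the gene of the SHORT-ROOT transcription factor, had 16 in ODD 1 and 111 in ODD 2, and the antenna protein gene LHCB4.2 had 28 in ODD 1 and 117 in ODD 2.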

How the data were processed

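ChIRP DNA of 4 libraries was sequenced, and the authors deposited 1 peak list per library on TAIR10. The submitters' processing notes name CASAVA 1.8.2, Trimmomatic, Bowtie2 and MACS2, and the sources used here do not give the calling options. Per the file headers, each peak has limits, a summit, a pileup signal, a fold enrichment (ratio of pileup to local background) and −log10 values of p and q (p-value and q-value), all made by the authors within 1 library and used here only to rank or filter peaks within a list. Peaks of chromosomes 1 to 5 were compared by overlap of at least 1 bp. Analyses used Python 3.11.15, pandas 2.3.3 and scipy 1.17.1, and overlap and pairing were tested on simulated data. Local background was solved from pileup and fold, to both of whose terms MACS2 adds 1. Read totals were not used here.

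Gene names and bodies came from a RefSeq table of TAIR10.1 without strand or exons, and 188 of 195 list members were found in it. As a check of fit, summits within 200 bp of coding gene edges were rarest at a shift of 0 bp on 5 of 5 chromosomes for ODD 2 and on 3 of 5 for ODD 1 (shifts up to 3000 bp). Members and gene lists were chosen with earlier results of these data known. Named were APOLO, the 10 pairs with the highest summed rank, the 10 highest peaks not found in each list, the 5 pairs of most unequal rank in each direction, the 5 largest shifts and up to 3 genes per list by ODD 1 rank. In addition, PID, ARF20, the 9 Polycomb genes and VRN2 were named after their values were seen.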

Additional observations from a re-analysis of the deposited data

Results flagged for a closer look

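Peaks on the organelle genomes stood outside the nuclear comparison and were flagged as signal in data that it did not use. On the mitochondrial genome ODD 1 had 161 peaks and ODD 2 had 203, against 63 in LACZ 1, and EVEN 1 had 192. Of these, 87.6% (81.5 to 92.2) of the ODD 1 peaks were found in ODD 2 and 62.6% (55.5 to 69.2) of the ODD 2 peaks in ODD 1. On the plastid genome ODD 1 had 55 peaks and ODD 2 had 56, against 49 in LACZ 1, and EVEN 1 had 30. There 76.4% of the ODD 1 peaks were found in ODD 2 and 60.7% of the ODD 2 peaks in ODD 1. The ratio of ODD 1 to ODD 2 peaks was 0.277 on the nuclear chromosomes. The shortest nuclear peak was 47 bp in ODD 1, 94 bp in ODD 2, 54 bp in EVEN 1 and 200 bp in LACZ 1, so peak counts are not on a like scale. The parts of these floors and of organelle DNA content in the counts were not tested.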

How the results depend on the processing

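Of 84 recomputed differences between found and not found peaks, 72 kept their direction. Of the 12 that did not, 7 started from a difference whose interval spans 0, which were 6 in ODD 1 summits near genes (a first value of -0.14) and the ODD 2 pericentromeres without peaks on LACZ 1 peaks. Differences are found minus not found, in percentage points for shares and ranks and in bp for widths. With overlap of at least 50% of the shorter peak, 93.6% of ODD 1 peaks were found. With −log10 q of at least 5, 98.3% of ODD 1 and 19.7% of ODD 2 peaks were found, the median absolute summit shift was 34 bp and 28.6% of coding genes had a shared peak. In ODD 1 the differences were then 99.5 bp in width, 25.6 in coding summits, -3.84 in summits near genes, -26 in pericentromeres and -0.600 in EVEN 1 overlap. In ODD 2 they were -45.7 in rank, -4.17 in coding summits, 2.62 in summits near genes, 5.19 in pericentromeres, 19.1 in EVEN 1 and 6.54 in LACZ 1 overlap.

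With ODD 2 cut to the length of ODD 1, 72.7% of ODD 1 and 67.4% of ODD 2 peaks were found and 38.4% of coding genes had a shared peak. In ODD 1 the differences were 63 bp in width, 1.65 in coding summits, -2.88 in pericentromeres and 6.76 in EVEN 1 overlap. In ODD 2 they were -34.9 in rank, 82 bp in width, 3.62 in pericentromeres, 17.9 in EVEN 1 and 8.27 in LACZ 1 overlap, and those in coding summits (2.42) and summits near genes (-2.53) turned round.

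With 200 bp summit windows 91.0% of ODD 1 peaks were found and the shift was 35 bp. The ODD 1 differences were 3.65 in coding summits, -0.53 in EVEN 1 and -4.15 in LACZ 1 overlap, and the ODD 2 ones 10.6 in EVEN 1 and 1.88 in LACZ 1 overlap. Without pericentromeres 95.3% of ODD 1 peaks were found, the shift was 38 bp and 42.2% of coding genes had a shared peak. The differences were then -37.7 in rank and 0.46 in coding summits for ODD 1, and -45.4 in rank, 11.2 in EVEN 1 and 2.04 in LACZ 1 overlap for ODD 2. Without peaks on LACZ 1 peaks 90.6% of ODD 1 and 23.9% of ODD 2 peaks were found and 42.1% of coding genes had a shared peak. This filter was applied to each list separately, so a kept ODD 1 peak could lose its ODD 2 partner. Against the full ODD 2 list, 94.6% of the ODD 1 peaks off LACZ 1 peaks were found. With the filter the differences were 42 bp in width for ODD 1, and -45.2 in rank, 108 bp in width and -1.33 in pericentromeres for ODD 2.

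Ranking by fold or by −log10 q gave ODD 2 rank differences of -46.1 and -46.9. A window of 500 bp gave 2.42 in ODD 2 summits near genes, and the gene body alone gave 33.2% of coding genes with a shared peak. For the 12 differences that changed direction the cause was not tested. Pairing by nearest summit and a 2 Mb pericentromere moved no value beyond counting error. No paired analysis was possible because each side of the comparison is 1 list and no test was run. For the same reason no library could be left out. The lowest pileup called was 6 in ODD 1 and 14 in ODD 2, and the part of depth was not tested.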
